A study of Mus musculus with 24 samples.

Results

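The genes described here belong to families in which demethylases of lysine 4 of histone H3 are known or reported. They were chosen by name: Kdm5a, Kdm5b, Kdm5c, Kdm1a, Kdm1b, Kdm2a and Kdm2b, 7 of the 47069 gene IDs in the count files, and all 7 were found and passed the filter on low counts. Kdm5d, the Y-linked gene of the Kdm5 family, is given beside them. The study measured hippocampal transcripts of male mice, 2 to 4 months old, in 18 messenger RNA libraries. Tissue of 3 mice was pooled for each library, and each of 6 groups had 3 libraries. KO mice carried a null allele of Kdm5c (Kdm5c-/y) on a mixed C57/129 background and were compared with wild-type (WT) mice. Both genotypes were sampled after 1 h in a box furnished with tubes and toys (novelty) or untreated. The ifKO mice carried a floxed Kdm5c allele (Kdm5c f/f) and CaMKIIα-creERT2, a tamoxifen-inducible Cre recombinase that is active in forebrain excitatory neurons, on a C57BL/6J background. They were untreated and were compared with untreated control mice. The Cre status of the controls and their tamoxifen treatment were not given in the sources used here. Other cell types of the ifKO hippocampus keep the gene.

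Methylation of lysine 4 of histone H3 marks promoters and enhancers of active genes. The Kdm5 enzymes use a Jumonji domain to remove it from its more highly methylated forms, and loss of KDM5C causes an X-linked intellectual disability in humans. Kdm1a (LSD1) and Kdm1b (LSD2) are flavin-dependent oxidases that act on the lower methylation states, and Kdm1a works in the CoREST corepressor complex. Kdm2a and Kdm2b bind unmethylated CpG islands through a zinc finger. They act mainly on lysine 36 of histone H3, with activity on lysine 4 reported for Kdm2b, which also brings a variant Polycomb complex to CpG islands.

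Library depth ranged between 16 and 45.6 M counts in genes. No listed cell-type marker was at 0 counts in any library, including those of hippocampal excitatory neurons. Choroid plexus markers summed to 614 CPM (counts per M, scaled by TMM) in KO untreated library 2 and to 405 CPM in control library 1, against 33.6 to 79.4 CPM in the other libraries. KO and WT libraries were single-end reads of 50 nt and ifKO and control libraries paired reads of 75 nt on another flowcell, so levels in the 2 lines are given side by side only. Library 2 of KO novelty and library 1 of WT novelty, called the deviating novelty libraries here, correlated least with the other libraries of their groups (mean r over log2 CPM of 0.992 and 0.993, against 0.994 to 0.998 in the other 16 libraries).

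Kdm5c lies at chrX:152233020-152274535 on the plus strand of GRCm38. The promoters of Kdm5c and of its Y-linked homologue Kdm5d are shown because Kdm5c was called in the novelty comparison below and Kdm5d was not. Each runs from 250 bases before to 50 bases after the RefSeq start site (RefSeq, GRCm38.p6, plus strand, chrX:152232977-152233276 for Kdm5c and chrY:897538-897837 for Kdm5d). Capitals mark the only match to the AP-1 letters, the sequence read by FOS and JUN proteins.
Kdm5c: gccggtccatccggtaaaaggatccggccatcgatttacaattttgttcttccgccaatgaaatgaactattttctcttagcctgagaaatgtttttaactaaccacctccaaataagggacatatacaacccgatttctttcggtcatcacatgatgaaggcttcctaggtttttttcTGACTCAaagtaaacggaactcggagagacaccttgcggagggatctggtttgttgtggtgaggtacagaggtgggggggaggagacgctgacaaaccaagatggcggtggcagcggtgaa
Kdm5d: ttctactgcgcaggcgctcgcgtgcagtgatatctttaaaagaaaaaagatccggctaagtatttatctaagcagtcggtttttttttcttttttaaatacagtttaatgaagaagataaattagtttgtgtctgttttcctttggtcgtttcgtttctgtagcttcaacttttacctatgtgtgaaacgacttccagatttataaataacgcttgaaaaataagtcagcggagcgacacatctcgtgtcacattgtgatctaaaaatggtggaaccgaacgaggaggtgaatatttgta
Letters of 5 motifs were searched on both strands. AP-1 was written as TGANTCA. The cAMP response element, CRE, was written as TGACGTCA. The E-box was CACGTG, the CCAAT box was as its name spells it, and the GC box was written as GGGCGG. The Kdm5c promoter held 1 AP-1 match at position -71 from the RefSeq start site and 1 CCAAT box at -196, which do not overlap, and its GC content was 47.0%. The Kdm5c gene start given above, 152233020, lies inside this window and before both matches, so they are not upstream of that start. For Kdm5d the RefSeq start site is the annotated gene start, so the 2 windows are not placed alike. AP-1 letters occurred in 7.81% of 32851 promoters of this length, CRE in 1.79%, E-box in 7.15%, the CCAAT box in 37.41% and the GC box in 35.66%. The Kdm5d promoter, with 36.7% GC, held none of these letters. The promoters found for Kdm5b, Kdm1a, Kdm1b and Kdm2b held no AP-1, CRE or E-box letters, and GC boxes were found for Kdm5b, Kdm1b and Kdm2b. CCAAT boxes were found for Kdm1a (-135) and for Kdm2b (-77 and -94, in windows that overlap each other). Kdm2b had several windows, and not all of them held a GC box or a CCAAT box. In all, 5 of the 7 listed genes matched the promoter table. Kdm5a and Kdm2a did not. These matches describe letters only.

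All 7 genes were transcribed in every library, and their order was steady. Per kb of exons, Kdm1a was highest in each of the 6 groups, with 13.6 ± 0.261 CPM per kb in ifKO libraries and 15.2 ± 0.454 CPM per kb in untreated WT libraries (SD, n = 3 each). Kdm5c came next, then Kdm2a, Kdm5b and Kdm5a. None of these neighbours overlapped between libraries of a group, except Kdm5b and Kdm5a in ifKO and in control. Kdm1b and Kdm2b were lowest, at 2.36 and 2.32 CPM per kb on average over the 18 libraries, and in the KO and WT groups they overlapped with Kdm5d, except Kdm2b in untreated KO, and with each other, except in KO novelty. Genes that passed the low-count filter over all 18 libraries were also ranked by mean level per kb over the 18 libraries. Among them Kdm1a stood at the 80.7th percentile and Kdm5c at the 74.3rd percentile, against the 39.4th for Kdm2b. By the longest transcript in place of the exon union, Kdm2a came before Kdm5c in every group and Kdm5b did so in every group but WT novelty, so the place of Kdm5c depends on which length is used.

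**Figure D1:**
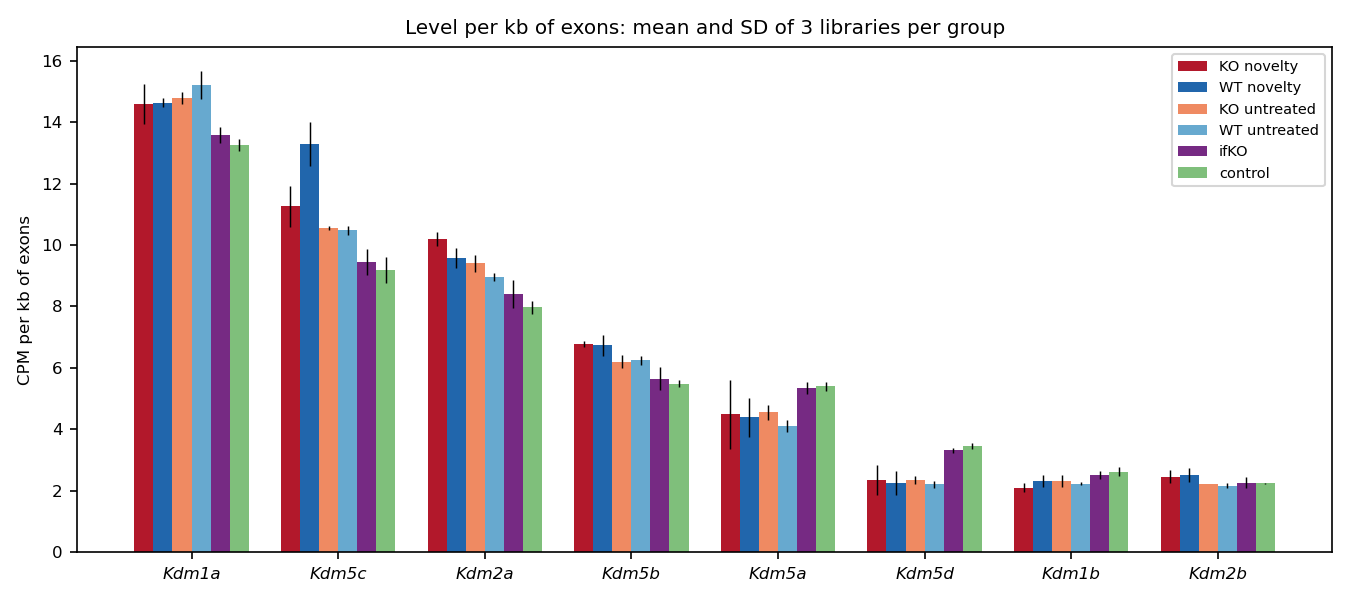
Bars show the mean level of each gene in CPM per kb of exons in each of 6 groups, with the SD of 3 libraries as error bars. Kdm1a is the highest gene in every group, and Kdm5c is highest in WT mice after novelty (13.3 CPM per kb).

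Kdm5c, the gene targeted in the mutants, was at nearly the same whole-gene level in mutants and their controls when untreated. It had 75.1, 75.4 and 74.5 CPM in untreated KO libraries, against 74.6, 73.4 and 75.5 CPM in untreated WT libraries. The ifKO libraries had 70.6, 65.0 and 66.1 CPM and the control libraries 63.4, 68.9 and 63.9 CPM. The groups overlapped in both pairs. The log2 difference was 0.01 ± 0.06 (SE) between untreated KO and WT, with a 95% interval of -0.13 to 0.14 (edgeR quasi-likelihood test, adjusted p = 0.983). It was 0.04 ± 0.05 between ifKO and control, with an interval of -0.06 to 0.15 (edgeR, adjusted p = 0.927). The mutant effects differed by -0.03 ± 0.08 (log2, interval -0.20 to 0.14). A count over the whole gene includes transcripts that lack only some exons. The exons that were removed were not given in the sources used here, so this count checks neither the genotype labels nor the deletion. No 50-base word of the longest Kdm5c transcript was shared with Kdm5d or any other gene.

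Novelty changed Kdm5c in WT mice. It had 99.1, 89.2 and 95.01 CPM in WT libraries after novelty, against 74.6, 73.4 and 75.5 CPM in untreated WT libraries. The groups did not overlap, which held in this direction for 8.41% of genes. The mean was 94.4 ± 5.01 CPM after novelty and 74.5 ± 1.06 CPM untreated (SD, n = 3 each), a 1.27-fold difference with a 95% interval of 1.15 to 1.39. On the log2 scale this was 0.34 ± 0.06 (SE), and edgeR gave an adjusted p of 0.0388. Kdm5c was 42nd by p among 16392 genes tested and the single one of the 7 genes called, where 0.384% of all genes were called in either direction and 0.348% as higher. The count of 1 gene in 7 is read against that share and is not a result about the family.

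In KO mice the Kdm5c count moved less. KO libraries had 77.7, 76.9 and 85.5 CPM after novelty, against 75.1, 75.4 and 74.5 CPM untreated. All 3 novelty libraries were higher than the untreated ones, as held for 8.6% of genes, with library 3 well above the other two. The log2 difference of 0.09 ± 0.06 (interval -0.04 to 0.23) was not called (edgeR, adjusted p = 0.866), in a comparison where 0.11% of genes were called. The difference between the novelty effects in KO and WT was -0.25 ± 0.09 on the log2 scale, with an interval of -0.44 to -0.06. Its unadjusted p was 0.0153 by edgeR and its adjusted p was 1.00. No gene was called in that comparison by edgeR or DESeq2, and 3.43% of genes (563) had an unadjusted p under 0.05 by edgeR.

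After novelty Kdm5c stood at 77.7, 76.9 and 85.5 CPM in KO libraries, against 99.1, 89.2 and 95.01 CPM in WT libraries. The groups did not overlap, which held in this direction for 4.66% of genes. The log2 difference was -0.24 ± 0.06 with an interval of -0.37 to -0.10. It was not called by edgeR (unadjusted p = 0.00218, adjusted p = 0.108). The 3 WT novelty libraries enter both this comparison and that of novelty in WT mice. It was called by DESeq2 (adjusted p = 0.0388) and by edgeR with offsets for GC content and length, without the replicate block (adjusted p = 0.0108) and with it (adjusted p = 0.0212). It was not called with the replicate block alone (adjusted p = 0.152), with no low-count filter (adjusted p = 0.229), with only the groups compared (adjusted p = 0.570), without both deviating novelty libraries (-0.17, adjusted p = 0.123) or with any single library of these groups left out (adjusted p 0.0718 to 0.323).

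Averaged over both genotypes, novelty raised Kdm5c to 87.2 CPM, against 74.7 CPM untreated, a log2 difference of 0.22 ± 0.04 (edgeR, adjusted p = 0.0299), where 1.35% of genes were called. The 6 novelty libraries were all above the 6 untreated ones, as held for 1.38% of genes. Both novelty calls rest on small margins. The WT call was lost with the replicate block (adjusted p = 0.0650), with only the groups compared in the fit (adjusted p = 0.187) and when untreated WT library 1, 2 or 3 or WT novelty library 3 was left out (adjusted p 0.127 to 0.213), at log2 differences between 0.31 and 0.38 over all libraries left out. With DESeq2 it had an adjusted p of 0.000292, and without both deviating novelty libraries 0.0147. The averaged call was lost with the block (adjusted p = 0.0518) and without each of the 6 untreated libraries in turn, without KO novelty library 1 or 3, and without WT novelty library 3 (adjusted p 0.0679 to 0.110).

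**Figure D2:**
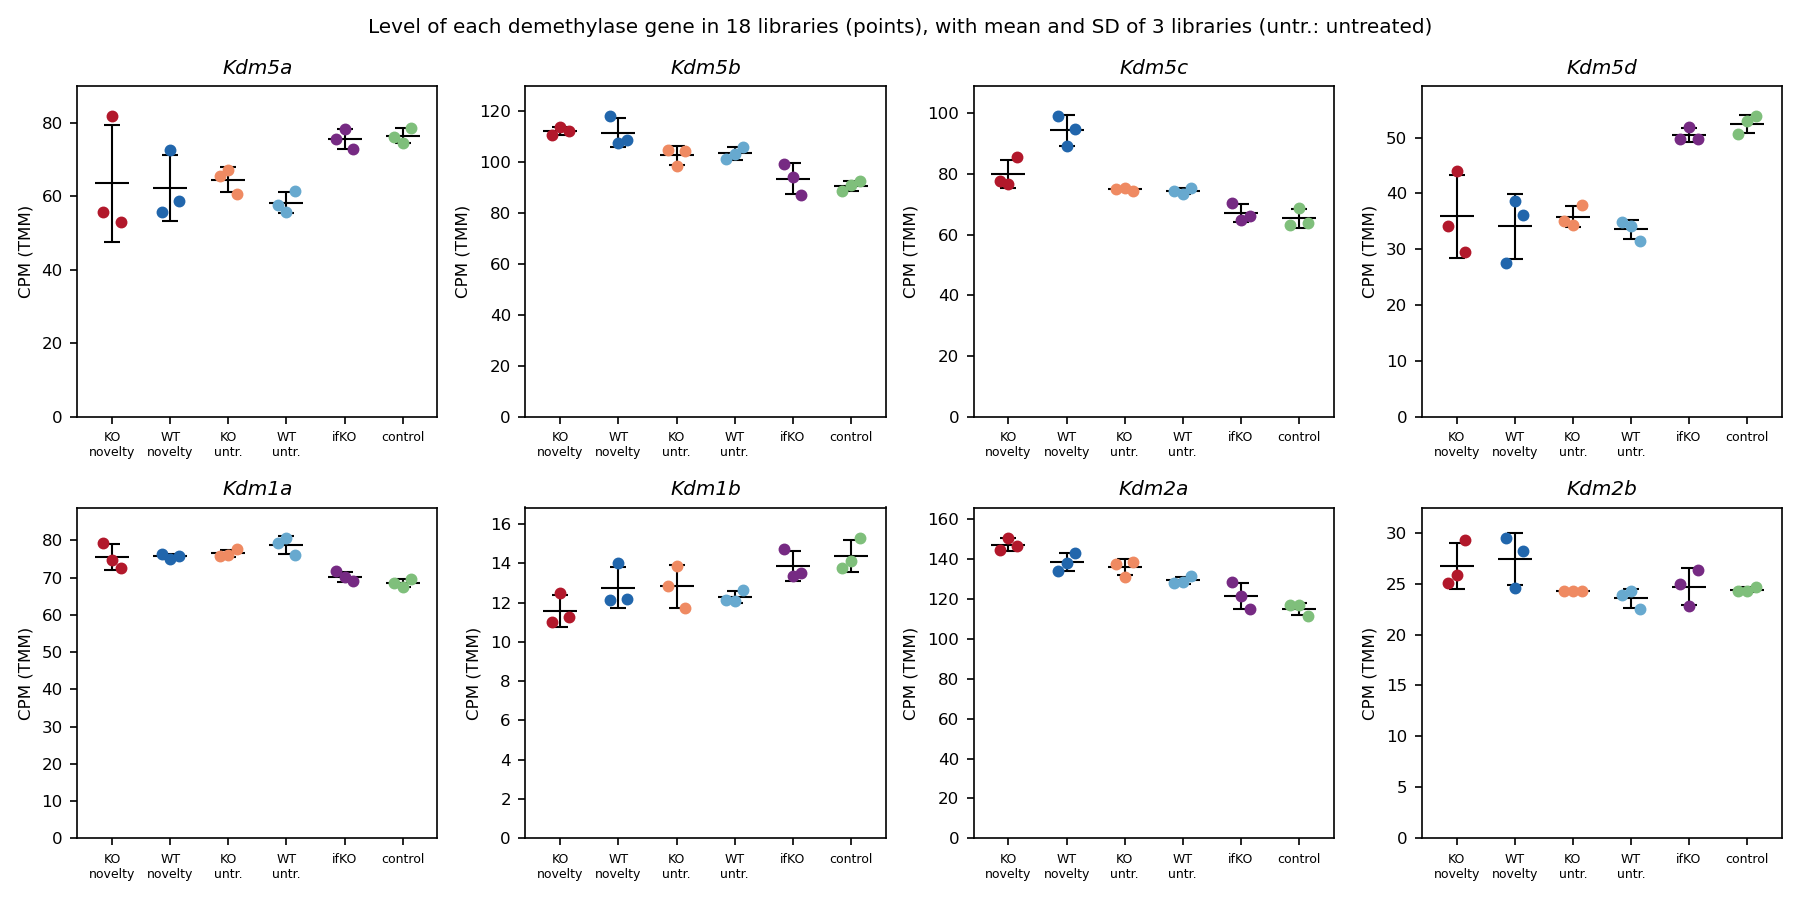
Points show CPM of each gene in each of the 18 libraries, with the mean and SD of 3 libraries per group, on axes that start at 0. Kdm5c is at 89.2 to 99.1 CPM in WT libraries after novelty, above all other groups, and Kdm5a is at 81.9 CPM in KO novelty library 2, above the rest of its group.

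Immediate early genes were higher after novelty. Of 15 immediate early genes, which respond to activity within minutes, edgeR called 6 as higher in WT mice, where 0.348% of all genes were. It called 2 as higher in KO mice (0.11% of all genes) and 11 in the average (1.07%). The estimate was positive for 15 of them in WT mice, 13 in KO mice and 15 in the average. For the difference between the novelty effects in KO and WT, 0 of the 15 were called, as held for all genes. The estimate of that difference was positive for 1 of the 15, with a median of -0.57 (log2), against 0.0021 for all genes. Between untreated KO and WT the estimate was positive for 13 of the 15, with a median of 0.52. Of the 15, 0 were called there, where 1.24% of all genes were. Their summed level was 1160 to 1338 CPM in KO novelty and 1204 to 1358 CPM in WT novelty libraries, against 602 to 1016 CPM in untreated KO and 421 to 784 CPM in untreated WT libraries. Fosl2, which encodes a FOS-family partner in AP-1, had 124, 111 and 126 CPM in WT libraries after novelty, against 59.6, 65.2 and 61.9 CPM untreated. It rose by 0.95 ± 0.09 on the log2 scale in WT mice (edgeR, adjusted p = 0.000665) and by 0.87 ± 0.09 in KO mice (edgeR, adjusted p = 0.00184). In bulk tissue, fewer cells of a type and less RNA per cell cannot be told apart, for Kdm5c or any other gene here. Cldn5, a tight junction gene of endothelium, fell by 0.53 ± 0.10 (log2; edgeR, adjusted p = 0.0142) in the averaged novelty comparison. It was the 1 gene called of 6 endothelial and mural markers, in a comparison where 1.35% of all genes were called. The summed level of these markers was 229 to 254 CPM in KO and 205 to 250.2 CPM in WT libraries after novelty. Untreated, it was 239.9 to 284 CPM in KO and 269 to 278 CPM in WT libraries. The part of Cldn5 in the Kdm5c result was not tested.

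Kdm5b is a promoter-bound demethylase of the Kdm5 family. It had 111, 114 and 112 CPM in KO and 118, 108 and 109 CPM in WT libraries after novelty. Untreated, it had 105, 98.5 and 105 CPM in KO and 101, 103 and 106 CPM in WT libraries. The genotypes overlapped in both conditions, and all novelty libraries were above all untreated ones, as held for 1.38% of genes. Averaged over conditions, KO differed from WT by 0.037% with a 95% interval of -5.95% to 6.40% (edgeR, adjusted p = 0.998). The novelty difference was 0.12 ± 0.04 on the log2 scale, with an interval of 0.03 to 0.21, and was not called (edgeR, adjusted p = 0.213). Kdm5b in ifKO libraries was 99.3, 94.2 and 87.2 CPM, against 88.8, 91.1 and 92.6 CPM in control, with overlap and a log2 difference of 0.05 ± 0.05.

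Kdm5a, the RB-binding founder of the family, varied widely within the novelty groups. It had 55.9, 81.9 and 53.1 CPM in KO and 55.6, 72.5 and 58.8 CPM in WT libraries after novelty. Untreated, it had 65.7, 67.2 and 60.7 CPM in KO and 57.7, 55.7 and 61.4 CPM in WT libraries. Library 2 was the highest of either novelty group, and the genotypes overlapped in both conditions. The averaged log2 difference between KO and WT was 0.09 ± 0.10 (interval -0.13 to 0.30), and it was -0.02 with the GC and length offsets. In ifKO libraries Kdm5a had 75.7, 78.2 and 72.8 CPM, against 76.3, 74.7 and 78.7 CPM in control, which overlapped (log2 difference -0.01 ± 0.04, interval -0.10 to 0.07).

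The spread of Kdm5a ran with a trend shared by all genes of like GC content and length. Kdm5a has 43.3% GC and a longest transcript of 10944 nt. The value of that trend at Kdm5a, fitted over all genes in each library, was 0.37 in KO novelty library 2 and 0.21 in WT novelty library 2, the libraries with the highest Kdm5a CPM among the KO and WT groups. It was -0.25 in WT novelty library 1 and -0.23 in untreated WT library 2. Kdm5c, with 52.8% GC and 6449 nt, had trend values between -0.03 and 0.05 in every library, and its differences were about as large with the offsets (0.32 ± 0.05 for novelty in WT, edgeR, adjusted p = 0.00306).

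**Figure D3:**
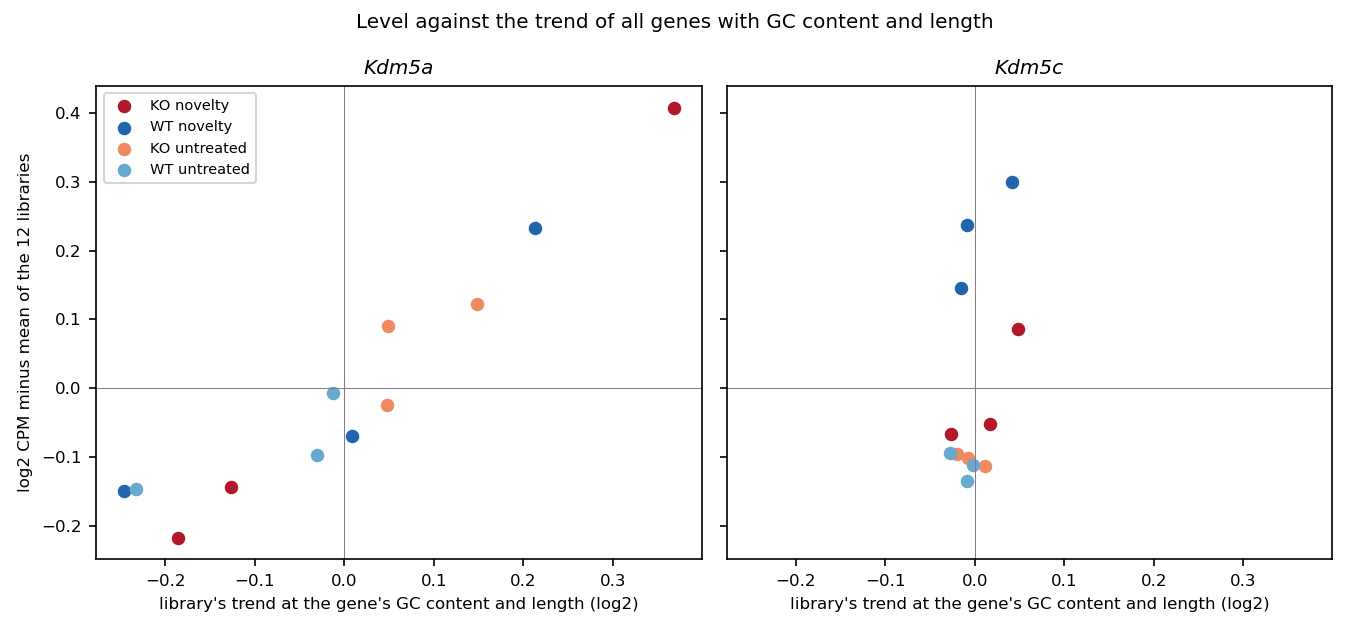
Each point is 1 of the 12 KO and WT libraries. The horizontal axis gives the library's trend of all genes at the gene's GC content and length (log2) and the vertical axis log2 CPM minus its mean over the 12 libraries. Kdm5a runs along the trend between -0.25 and 0.37, while Kdm5c spreads upward in WT novelty libraries at trend values close to 0.

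Kdm5d gave no called difference either. It had 34.1, 44.1 and 29.6 CPM in KO and 27.5, 38.7 and 36.1 CPM in WT libraries after novelty. Untreated, it had 35.1, 34.4 and 38.0 CPM in KO and 34.9, 34.2 and 31.5 CPM in WT libraries. The averaged log2 difference was 0.08 ± 0.10 (interval -0.13 to 0.30) and the ifKO difference -0.05 ± 0.04 (interval -0.14 to 0.04), with overlap in each pair. The summed level of Kdm5a, Kdm5b and Kdm5d was 203 ± 2.86 CPM in untreated KO and 195 ± 3.17 CPM in untreated WT libraries (SD, n = 3 each). It was 212 ± 24.5 CPM in KO and 208 ± 9.51 CPM in WT libraries after novelty, and 219.6 ± 8.53 CPM in ifKO and 219.9 ± 4.85 CPM in control libraries. The sums of untreated KO and WT libraries did not overlap, those of the other pairs did, and no test was made on them. Without Kdm5d the untreated sums overlapped, at 165 to 171 CPM in KO and 159 to 167 CPM in WT libraries. The untreated KO difference of Kdm5a, a part of both sums, was 0.15 ± 0.14 on the log2 scale and -0.03 with the GC and length offsets.

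Kdm1a, the CoREST oxidase, varied little. It had 79.3, 74.7 and 72.6 CPM in KO and 76.5, 74.9 and 75.8 CPM in WT libraries after novelty. Untreated, it had 75.9, 76.1 and 77.7 CPM in KO and 79.3, 80.8 and 76.2 CPM in WT libraries. The genotypes overlapped, and the averaged KO difference had a 95% interval of -7.19% to 4.67%. In ifKO libraries it was 71.7, 70.1 and 69.0 CPM, against 68.6, 67.6 and 69.6 CPM in control (log2 difference 0.04 ± 0.04). Kdm1b, the oxidase known from oocyte imprinting, was low. Its KO libraries had 10.995, 12.5 and 11.3 CPM and WT libraries 12.1, 14.0 and 12.2 CPM after novelty. Untreated, KO libraries had 12.8, 13.9 and 11.7 CPM and WT libraries 12.1, 12.1 and 12.6 CPM. The averaged KO difference of Kdm1b was -0.04 ± 0.07 (log2, interval -0.19 to 0.10), with overlap in both conditions. In ifKO libraries Kdm1b had 14.7, 13.4 and 13.5 CPM, against 13.8, 14.1 and 15.3 CPM in control (log2 difference -0.05 ± 0.07, interval -0.20 to 0.11).

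Kdm2a, a CpG island reader, had an estimate of the same size in both mutants, and neither was called. After novelty it had 144, 151 and 147 CPM in KO libraries, against 134, 138 and 143 CPM in WT libraries. Untreated KO libraries had 138, 131 and 139 CPM, against 128, 128 and 131 CPM in untreated WT libraries. The KO libraries after novelty were all above the WT ones, as held in this direction for 6.59% of genes, and the untreated groups overlapped narrowly. The averaged log2 difference was 0.08 ± 0.04 (interval -0.0012 to 0.16; edgeR, unadjusted p = 0.0529, adjusted p = 0.431). In ifKO libraries it had 128, 121 and 115 CPM, against 117, 117 and 112 CPM in control, with overlap, a log2 difference of 0.08 ± 0.04 and an interval of -0.01 to 0.17 (edgeR, adjusted p = 0.791). With the GC and length offsets the untreated KO difference was -0.0035. The novelty difference averaged over genotypes was 0.11 ± 0.04 (edgeR, adjusted p = 0.235).

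Kdm2b, the subunit that ties a variant Polycomb complex to CpG islands, had 25.0, 25.9 and 29.3 CPM in KO and 29.5, 24.5 and 28.2 CPM in WT libraries after novelty. Untreated, it had 24.3, 24.3 and 24.2 CPM in KO and 23.9, 24.3 and 22.5 CPM in WT libraries. All 6 novelty libraries lay above all 6 untreated ones, as held for 1.38% of genes, and the genotypes overlapped in both conditions. The averaged novelty difference was 0.18 ± 0.06 on the log2 scale (interval 0.05 to 0.30) and was not called (edgeR, adjusted p = 0.184). The averaged KO difference was 0.0053 ± 0.06 (interval -0.12 to 0.13) and the ifKO difference 0.02 ± 0.06 (interval -0.11 to 0.15). Kdm2b had 24.9, 22.8 and 26.4 CPM in ifKO libraries, against 24.3, 24.2 and 24.7 CPM in control, which overlapped. Exons of Kdm2b overlap on the other strand with exons of Rnf34, whose count was 1036 to 2775, and 12.5% of the 50-base words of its transcript occur in other genes. Exons of Kdm5a and Kdm1b overlap those of Ccdc77 and Dek on the other strand. The libraries were stranded per the labels, and the strand setting of the counting was not given in the sources used here, so the counts of Kdm2b, Kdm5a and Kdm1b are uncertain to that extent.

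**Figure D4:**
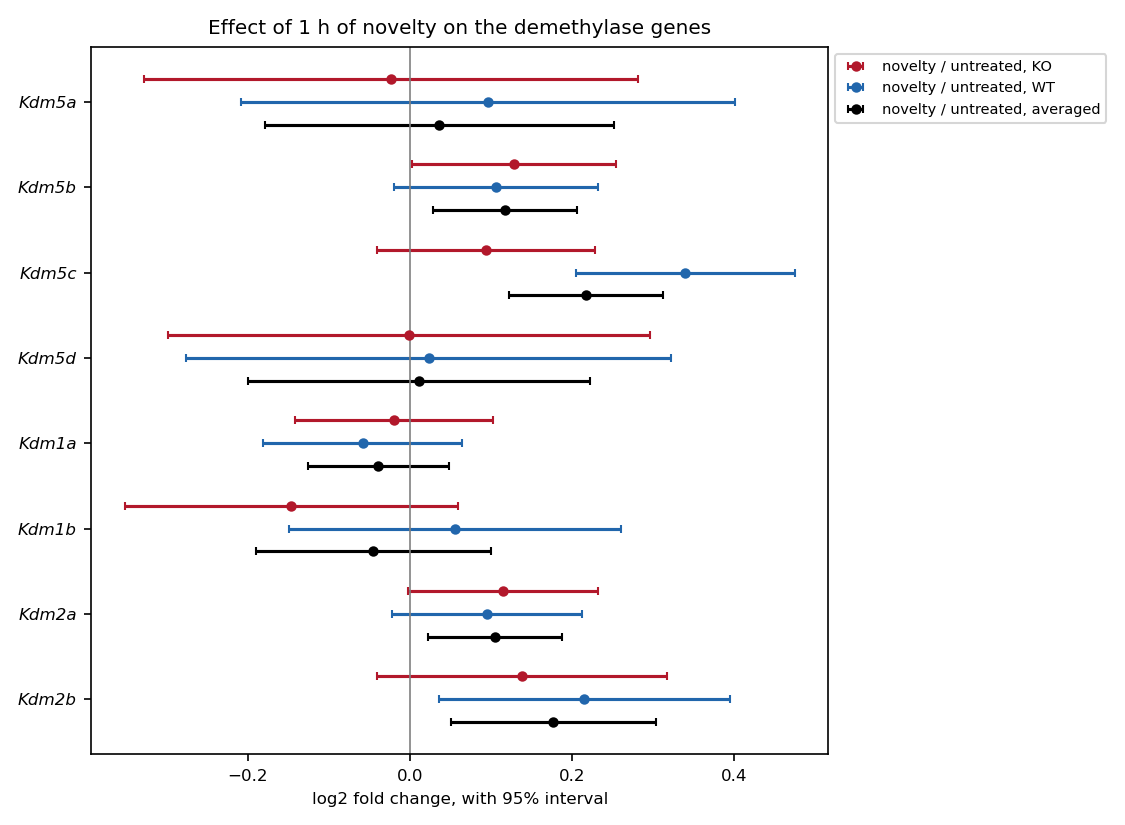
Points show the log2 fold change of novelty against untreated for each gene in KO, in WT and averaged, with 95% intervals. Kdm5c in WT (0.34) is the point farthest right, and Kdm5b, Kdm2a and Kdm2b have averaged intervals above 0 without passing adjustment over all genes.

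Neither the other 6 listed genes nor Kdm5d were called in any genotype comparison by edgeR. Of the 7 genes 0 were called in KO untreated, where 1.24% of genes were, 0 in KO after novelty, where 1.34% were, and 0 in the average, where 2.81% were. In ifKO 0 were called, where 0.645% of genes were. An unadjusted p under 0.05 by edgeR was reached by 0 of the 7 in untreated KO (8.66% of all genes), by Kdm5c alone after novelty (8.73%) and in the average (11.9%), and by 0 in ifKO (6.64%). DESeq2 called 0 of the 7 in untreated KO, in the average and in ifKO, and 1 after novelty. The shares above are those of edgeR and are not the background of these DESeq2 counts. After novelty, 104 to 705 genes were called over settings other than left-out libraries, against 219 in the main fit. The difference between the KO and ifKO effects was called for 0 of the 7 genes and for 0.114% of all genes. For each of the other 6 genes the interval of the averaged effect stayed between -12.2% and 23.3%, which are the bounds set by Kdm1b and Kdm5a. Changes within a gene's interval are not excluded by these 6 libraries against 6.

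**Figure D5:**
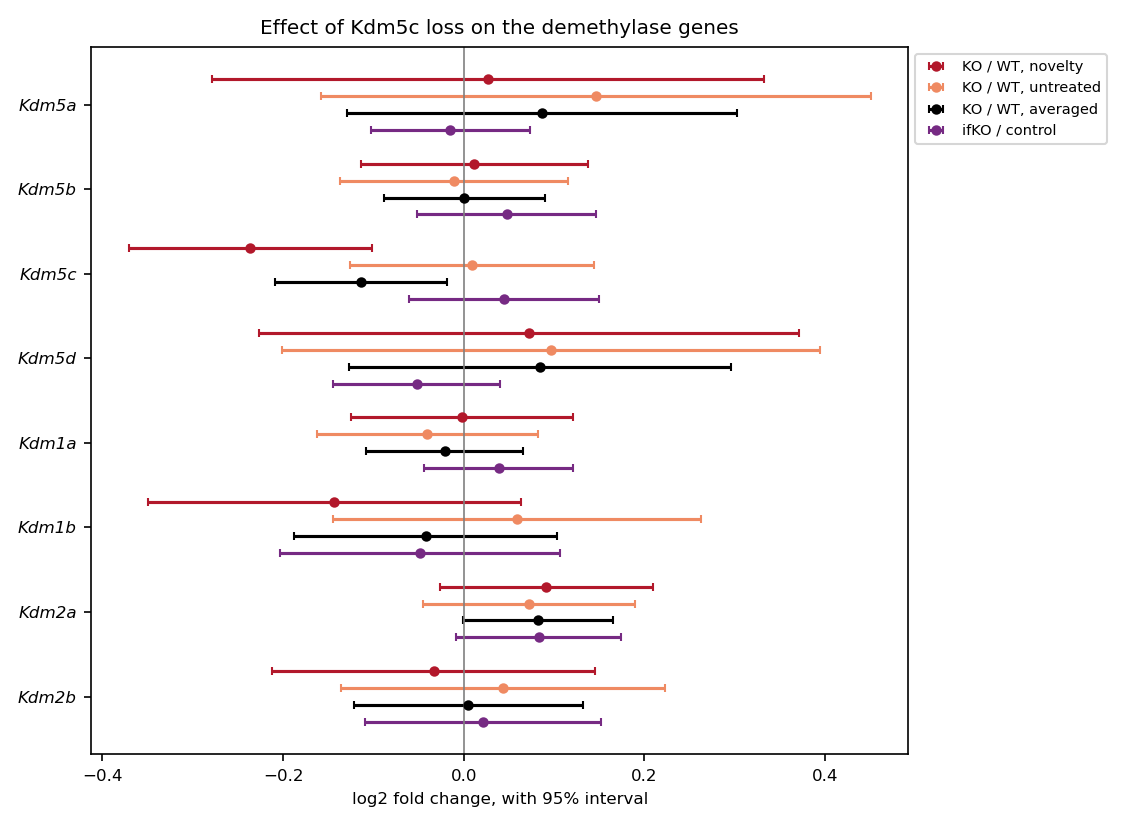
Points show the log2 fold change of KO over WT after novelty, untreated and averaged, and of ifKO over control, with 95% intervals. All intervals include 0 except those of Kdm5c after novelty (-0.24) and in the average (-0.11), and the intervals of Kdm5a and Kdm5d in KO are the widest.

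The list of 20 H3K4 methyltransferase and COMPASS genes holds writers of the mark and other members of their complexes. Of these, 0 were called by edgeR in any of the 9 comparisons, in which 0% to 2.81% of all genes were called. Their median log2 difference in the averaged genotype comparison was -0.03, against 0.00071 for all genes. Kdm6a is in this list and also in that of other Jumonji domain genes below. Setd1b, a catalytic subunit, was lowest at -0.19 ± 0.05 (edgeR, adjusted p = 0.0893). It was called by DESeq2 (adjusted p = 0.0460) and with the offsets (-0.26, edgeR, adjusted p = 0.00108). It had 50.6, 53.5 and 57.3 CPM in KO and 68.2, 58.1 and 60.3 CPM in WT libraries after novelty, which did not overlap, as held in this direction for 4.66% of genes. Untreated, Setd1b had 52.8, 48.0 and 49.8 CPM in KO and 53.8, 58.9 and 58.0 CPM in WT libraries. It had 46.3, 40.3 and 42.3 CPM in ifKO and 47.0, 48.5 and 49.2 CPM in control libraries. Neither pair overlapped, as held in this direction for 9.36% of genes untreated and 5.83% in ifKO. Kmt2c, a catalytic subunit of the enhancer-bound writers, differed by 0.20 ± 0.16 (interval -0.13 to 0.53) and was not called.

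Of the 18 LSD1 and CoREST partners 17 were tested, and 1 was called in the 9 comparisons. It was called in KO after novelty, where 1.34% of all genes were, and in the averaged genotype comparison, where 2.81% were. The median of these partners in the averaged genotype comparison was -0.0057 on the log2 scale. Rreb1, a zinc finger transcription factor, had 174, 155 and 186 CPM in KO libraries after novelty, against 207, 245 and 234 CPM in WT libraries. Untreated, it had 173, 190.2 and 195 CPM in KO and 217, 222 and 209 CPM in WT libraries. The genotypes did not overlap in either condition, as held in this direction for 4.66% of genes after novelty and 9.36% untreated. It fell by 0.41 ± 0.08 on the log2 scale after novelty (edgeR, adjusted p = 0.0210) and by 0.31 ± 0.06 in the average (edgeR, adjusted p = 0.00677). The ifKO difference was -0.19 ± 0.05 and was not called (edgeR, adjusted p = 0.216), with 161, 178 and 173 CPM in ifKO and 182, 207 and 196 CPM in control libraries, which did not overlap, as held in this direction for 5.83% of genes. The call after novelty was lost with only the groups compared (adjusted p = 0.190), with the replicate block and offsets together (adjusted p = 0.0518) and without KO novelty library 1 or 2 or WT novelty library 2 or 3 (adjusted p 0.0644 to 0.0947). The averaged call held under every alternative, at adjusted p up to 0.0262.

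Of 10 Kdm2b partners in the variant Polycomb complex, 1 was called, in the averaged novelty comparison only, where 1.35% of all genes were. Of the 10, 0 were called in the averaged genotype comparison, where 2.81% of all genes were. Their median averaged KO difference was -0.0018 (log2). Bcor, a corepressor of that complex, had 35.8, 33.8 and 37.2 CPM in KO and 30.4, 30.03 and 29.5 CPM in WT libraries after novelty. Untreated, it had 31.2, 24.7 and 28.3 CPM in KO and 28.0, 24.8 and 25.7 CPM in WT libraries. It rose with novelty by 0.27 ± 0.06 in the average (log2; edgeR, adjusted p = 0.0486). This call was lost with RLE factors (adjusted p = 0.0519) and when any of 10 single libraries was left out (adjusted p 0.0559 to 0.142). Pcgf1, the ring finger subunit of the complex, differed by -0.15 ± 0.06 between KO and WT in the average and was not called.

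Of 14 Kdm5 partners 0 were called in any of the 9 comparisons, in which 0% to 2.81% of all genes were. Their median averaged KO difference was -0.0072 (log2). Mga, a MAX-binding repressor, differed by 0.42 ± 0.17 in the averaged genotype comparison (edgeR, adjusted p = 0.298). With the offsets it was 0.28 ± 0.06 (edgeR, adjusted p = 0.00681), and without both deviating novelty libraries 0.13 (edgeR, adjusted p = 0.465). Rest, the neuronal gene repressor, differed by 0.16 ± 0.08 (edgeR, adjusted p = 0.480). Of 18 other Jumonji domain genes, 1 was called in the 9 comparisons, in ifKO, where 0.645% of all genes were. The median averaged KO difference of the 18 was 0.05 (log2). Kdm4b, which acts on lysine 9 of histone H3, had 94.1, 93.0 and 96.6 CPM in ifKO libraries, against 81.4, 84.9 and 80.9 CPM in control, with no overlap, as held in this direction for 6.12% of genes. It rose by 0.20 ± 0.04 (log2; edgeR, adjusted p = 0.0339). The call was lost with the offsets (0.14, adjusted p = 0.122), with the replicate block (adjusted p = 0.147) and without each of the 6 libraries of the line in turn (adjusted p 0.0657 to 0.256). Untreated, Kdm4b had 109.7, 104 and 105 CPM in KO and 96.1, 96.05 and 92.0 CPM in WT libraries, which did not overlap, as held in this direction for 11.7% of genes, and its log2 difference of 0.17 ± 0.08 was not called (edgeR, adjusted p = 0.595). After novelty the genotypes overlapped, and the averaged difference was 0.11 ± 0.06 and not called. Hr and Jmjd1c, also of the Jumonji list, differed by 0.25 ± 0.11 and 0.19 ± 0.13 in the averaged genotype comparison and were not called. Cell-type markers also differed in that comparison. Mbp of myelin (-0.26 ± 0.06) and Pvalb of interneurons (-0.23 ± 0.06) fell, Gfap of astrocytes (0.27 ± 0.05) rose and Hbb-bt of blood (-0.79 ± 0.14) fell (log2, edgeR). Each was the 1 gene called in its list, of 6 oligodendrocyte, 6 interneuron, 6 astrocyte and 5 blood markers, where 2.81% of all genes were called. The estimate was positive for 3 of the 6 interneuron markers, with a list median of 0.014 (log2), so that list had no common direction. It was positive for 5 of the 6 astrocyte, 0 of the 6 oligodendrocyte and 0 of the 5 blood markers. Oligodendrocyte markers summed to 3070 to 3495 CPM in KO and 3260 to 3730 CPM in WT libraries after novelty, and to 2948 to 3460 CPM in KO and 3838 to 4234 CPM in WT libraries when untreated. Astrocyte markers summed to 5246 to 5358 CPM in KO and 4282 to 5146 CPM in WT libraries after novelty, and to 5454 to 5669 CPM in KO and 4556 to 5070 CPM in WT libraries when untreated. Interneuron markers summed to 611 to 781 CPM in KO and 609.9 to 675.0 CPM in WT libraries after novelty, and to 571 to 639 CPM in KO and 646 to 726 CPM in WT libraries when untreated. Blood markers summed to 28.0 to 34.8 CPM in KO and 31.2 to 37.0 CPM in WT libraries after novelty, and to 19.0 to 29.3 CPM in KO and 26.6 to 33.1 CPM in WT libraries when untreated. Astrocyte sums did not overlap between genotypes in either condition, oligodendrocyte and interneuron sums did not when untreated, and blood sums overlapped in both conditions. Their part in the values of the demethylase genes was not tested.

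Over the 12 KO and WT libraries, the genes most like Kdm5c in log2 CPM were Prdm15, Epn2, Lman2l, Bicd2 and Camkk1, with Pearson r of 0.95, 0.93, 0.93, 0.93 and 0.92 among 10153 genes with a mean of at least 10 CPM. Among the listed genes, r with Kdm5c was 0.79 for Kdm2b, 0.66 for Kdm5b, 0.26 for Kdm2a, 0.00012 for Kdm1b, -0.17 for Kdm5a and -0.43 for Kdm1a. The points share libraries, groups and flowcell, so these values describe likeness only. By deviations from the group means the 5 genes most like Kdm5c were others (Ptprf, Polr2a, Mfsd2a, Lrwd1 and Nelfa), with 0 shared.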

How the data were processed

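RNA was measured by sequencing of 18 hippocampal libraries, described by 24 sample records, since each paired library has a record per read. The authors deposited raw counts per Ensembl gene, one file per library and without normalization. The submitters' processing notes name HTSeq 0.6.1, SAMtools 1.3, STAR 2.5.0c and DESeq2 with build GRCm38 (mm10). The strand setting and annotation release were not given in the sources used here. Of 47069 IDs, 46574 were given symbols, positions and lengths from GENCODE M21 and 495 were not. Summary lines (reads in no feature 14.7 to 17.2%, ambiguous 0.765 to 1.06%) were left out.

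The tests used edgeR 4.0.16 in R 4.3.3: TMM, filterByExpr (minimum count 10, minimum total 15), quasi-likelihood F test and Benjamini-Hochberg adjustment over all tested genes, with called meaning an adjusted p under 0.05. KO and WT were fitted together (12 libraries), ifKO and control alone (6), and the difference of mutants over all 18. SE is the log2 fold change over the root of F, and intervals are 95%. CPM were scaled by TMM over 18 libraries. Replicates are pools of 3 mice each. Alternatives were DESeq2 1.42.0, RLE factors, other low-count filters, the replicate number as a block, offsets from splines of GC content and transcript length (5 degrees of freedom each), fewer groups, and libraries left out. The script was also run on simulated counts, with planted changes larger than those of the listed genes and in pairwise comparisons only. That run does not address calls of changes as small as those of the listed genes.

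Named were the listed genes, Kdm5d, of each gene list those called (at most 6 per comparison) or otherwise the 2 with the largest averaged KO difference, and the 5 most like Kdm5c. Of the marker and immediate early lists some named genes are given as counts or sums only. The members and lists were chosen with earlier results of these data known.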

Additional observations from a re-analysis of the deposited data

How the results depend on the processing

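Over all alternatives, no listed gene was called in the untreated KO, averaged KO, KO novelty, interaction, ifKO or mutant-difference comparison. Of the 7 genes, 1 rather than 0 (Kdm5c) was called in KO against WT after novelty with DESeq2, with GC and length offsets and with the replicate block and offsets together. For novelty in WT, 0 rather than 1 were called with the replicate block and with only the groups compared, and 0 to 1 with single libraries left out. For averaged novelty, 0 rather than 1 were called with the replicate block, and 0 to 1 with single libraries left out. The replicate number did not pair the libraries in all groups. Of 21 pairs of libraries with the same number, 6 had a correlation of deviations over 0.1, with a range of -0.43 to 0.45. Between untreated KO and KO novelty it was 0.097, 0.271 and 0.180, each above the best value with another number (0.055, -0.184 and 0.178). Between untreated WT and WT novelty it was -0.232, -0.357 and 0.057, each below that value (0.212, 0.376 and 0.192). With the replicate block, Kdm5c in WT novelty was 0.34 with an adjusted p of 0.0650. A sign change between values that were called in neither fit was counted where it exceeded 1 SE of the reported value. Such changes, in log2, were Kdm5a in untreated KO (-0.027 with offsets and -0.028 with block and offsets), Kdm2a in untreated KO (-0.0035 and -0.0057), Kdm5a in KO after novelty (-0.27 without both deviating libraries, -0.19 to 0.14 with single libraries left out), Kdm5a in averaged KO (-0.022 with either offset, -0.064 without both deviating libraries, -0.023 to 0.14 left out), Kdm5b in averaged KO (-0.042 with block and offsets), Kdm5a in averaged novelty (-0.077 to 0.086 left out), Kdm5a in the difference between mutants (-0.020 with offsets, -0.021 with block and offsets), Kmt2c in averaged KO (-0.047 without both deviating libraries, -0.011 to 0.29 left out) and Jmjd1c in averaged KO (-0.015 without both deviating libraries). Except for the offsets, whose construction removes the trend with GC content and length, the cause was not tested.

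Counts over all genes moved by more than 1.5 times. Over settings other than left-out libraries they were 173 to 415 (204 reported) for untreated KO, 104 to 705 (219) for KO after novelty, 417 to 755 (461) for averaged KO, 6 to 451 (63) for WT novelty, 6 to 101 (18) for KO novelty, 160 to 662 (222) for averaged novelty, 0 to 331 (0) for the interaction, 77 to 398 (112) for ifKO and 19 to 83 (20) for the difference of mutants. With single libraries left out they were 121 to 149, 144 to 282, 357 to 510, 4 to 102, 1 to 10, 91 to 298, 0, 56 to 102 and 18 to 23 in the same order. The interaction count of 331 came without both deviating novelty libraries. Levels per kb by the longest transcript moved by more than the spread for 6 of the 7 genes, Kdm5c being the exception, and CPM without TMM factors kept the order of the 7. Kdm1b had the lowest counts of the 7, with 199 to 660 counts per library.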

Other observations

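The spread between pools differed widely between the demethylase genes. The coefficient of variation over 3 libraries was 25.0% for Kdm5a and 20.7% for Kdm5d in KO mice after novelty, against 0.596% for Kdm5c and 0.132% for Kdm2b in untreated KO mice. The sum over the 7 genes was 517 ± 17.3 CPM in KO and 523 ± 2.12 CPM in WT libraries after novelty, and 492 ± 4.997 CPM in KO and 480.1 ± 4.75 CPM in WT libraries when untreated (SD, n = 3 each).

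Kdm5d stood at 49.8 to 51.9 CPM in ifKO and 50.6 to 53.9 CPM in control libraries, and at 27.5 to 44.1 CPM over the KO and WT libraries. Kdm5a was 72.8 to 78.7 CPM in the inducible line. Background strain, read layout and flowcell all differ between the lines and cannot be told apart.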
